A study of Mus musculus with 2 samples.

Results

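Cyp21a1 encodes steroid 21-hydroxylase, and Cyp21a2-ps is its pseudogene copy on the same chromosome. All transcript models that the deposited tables assign to either gene name were taken. They were 177 of 65815 models in replicate 1 and 266 of 99180 in replicate 2, carrying 6855 and 12254 reads. Cyp21a1 had 144 and 210 of these models, and Cyp21a2-ps had 33 and 56. The series holds 1 group of 2 long-read RNA-seq libraries, made from total RNA of adrenal glands of female B6CASTF1/J mice aged 25 days. B6CASTF1/J is a first-generation hybrid that carries one genome of C57BL/6J origin and one of CAST/EiJ origin, and no treatment, altered allele or second condition is named. The labels number the libraries as biological replicates 1 and 2, but the library descriptions name 1 animal for both while the tissue descriptions name a different animal for each. Whether the spread between the libraries is biological or technical is therefore not settled by the labels.

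21-hydroxylase is a cytochrome P450 of the endoplasmic reticulum in the adrenal cortex. It hydroxylates progesterone and 17-hydroxyprogesterone at carbon 21, a step that all mineralocorticoids and glucocorticoids need, and it takes its electrons from P450 oxidoreductase. In mice and humans the gene sits in the class III region of the major histocompatibility complex, in a duplicated block with a complement C4 gene and a tenascin X gene, and each block carries a 21-hydroxylase copy, although a single copy is active. Exchange of sequence between the active gene and the pseudogene is a well known source of 21-hydroxylase deficiency in humans, which causes congenital adrenal hyperplasia.

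In the mm10 build with the GENCODE M21 annotation, Cyp21a1 (ENSMUSG00000024365.9, protein-coding) occupies chr17:34801348-34804561 on the minus strand. Cyp21a2-ps (ENSMUSG00000092471.1, unprocessed pseudogene) occupies chr17:34719813-34722252 on the same strand, with 79095 bases between the copies. The main transcript of the gene has 10 exons and 487 codons before its stop codon. The pseudogene is annotated with 9 exons and has no counterpart of exon 2 of the gene. Its intron 1 is 296 bases long, whereas the gene spends 506 bases on the span from exon 1 to exon 3. The exons that both copies share were compared base by base, using the coding part of exon 1. Over exons 1 and 3 to 9 of the gene, 1082 of 1105 aligned bases were the same, which is 97.9%. Exon 5 of the gene was identical to exon 4 of the pseudogene over all 102 bases, and exon 6 differed most, with 82 of 87 bases the same (94.3%). Together with exon 10, of which the pseudogene annotation covers 277 aligned bases and adds 1, there were 34 substitutions. Of these, 20 change the amino acid of the gene's codon when applied alone, 13 leave it the same and 1 makes a stop codon.

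The stop codon lies in exon 8 of the gene, which corresponds to exon 7 of the pseudogene. Both exons are shown because they hold the stop and also the splice site that divides the reads of the pseudogene below. They are given 5′ to 3′ from the GENCODE transcript sequences, from chr17:34802305-34802474 and chr17:34720347-34720516 of mm10, minus strand, with the 4 bases that differ in capitals.
exon 8 of Cyp21a1: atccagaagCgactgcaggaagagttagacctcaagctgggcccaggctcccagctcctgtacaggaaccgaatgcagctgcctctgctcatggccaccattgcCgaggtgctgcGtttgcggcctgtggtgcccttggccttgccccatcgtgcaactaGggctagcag
exon 7 of Cyp21a2-ps: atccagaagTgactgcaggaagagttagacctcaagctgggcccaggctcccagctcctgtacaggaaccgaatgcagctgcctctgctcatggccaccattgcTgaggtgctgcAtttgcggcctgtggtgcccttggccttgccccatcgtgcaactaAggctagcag
Counted from the 5′ end of the exon, with the gene's base first, the differences are C10T, C105T, G116A and G161A. C10T turns codon 311 of the gene from CGA into the stop codon TGA. G161A lies near the 3′ end of the exon, just before the splice site described below.

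Exon 2 of the gene, chr17:34804044-34804133 of mm10 on the minus strand, is shown because the annotated pseudogene lacks it and because the most read unannotated intron of the gene ends inside it. The capitals mark the last bases of that intron.
exon 2 of Cyp21a1: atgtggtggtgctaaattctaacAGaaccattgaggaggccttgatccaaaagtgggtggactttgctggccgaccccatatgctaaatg
The exon is 90 bases long, a multiple of 3.

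The gene was among the most abundant transcripts of the gland, and the pseudogene was also read. Counts are whole long reads, each read from a cDNA, and they are not divided by length unless stated. Cyp21a1 was covered by 6764 and 11972 reads in replicates 1 and 2. Scaled to 1000000 reads on annotated genes (CPM), it stood at 17030 and 16814, with a mean of 16922 ± 153 (SD, n = 2). It ranked 2 of all genes in both libraries, below Cyp11a1, the enzyme that begins steroid synthesis from cholesterol, at 28038 and 24144 CPM. Below it came Star, which carries cholesterol into mitochondria, at 11612 and 8889 CPM, and Hsd3b1, a 3-beta-hydroxysteroid dehydrogenase, at 9371 and 10379 CPM. The order of Cyp11a1 and Cyp21a1 was the same in both libraries, whereas Star and Hsd3b1 changed places.

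Cyp21a2-ps had 91 and 282 reads, 229 and 396 CPM, 313 ± 118 (SD, n = 2), and ranked 800 and 398. Divided by the mean length of the models read, the gene stood at 8505 and 8284 CPM per kilobase and the pseudogene at 119 and 203. Reads grouped in a model share its outer ends, so these lengths are approximate. For instance, the Cyp21a1 model that retains intron 1 (435 and 659 reads) is listed with 1968 bases in replicate 1 and 2642 in replicate 2. There were 74.3 reads of the gene for each read of the pseudogene in replicate 1 and 42.5 in replicate 2. Of the reads of both copies, the pseudogene took 1.33% in replicate 1 (95% Wilson interval 1.08 to 1.63) and 2.30% in replicate 2 (2.05 to 2.58), 1.81% ± 0.69 (SD, n = 2). These intervals, like all intervals and p-values given here, cover counting error only, and reads without molecular identifiers are not independent molecules. Because the copies are nearly identical, a read could have been placed on the wrong copy, and the reads themselves were not analysed here.

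The libraries were compared gene by gene with a two-sided exact binomial test against their totals, which compares 2 libraries and not conditions. Over 9271 genes with at least 10 reads, 199 passed an adjusted p of 0.05 (Benjamini-Hochberg), which is 2.15%, with 0.798% called as higher in replicate 2 and 1.35% as higher in replicate 1. That is 74 of 199 calls higher in replicate 2, against 55 of 203 with totals scaled by TMM or DESeq2. Of the members, 1 of 2 was called. Cyp21a2-ps was 1.72-fold higher in replicate 2 (log2 ratio 0.78, 95% interval 0.44 to 1.15, exact binomial test, adjusted p = 0.00041). Counting annotated transcripts alone, that is 22 against 59 reads, the log2 ratio was 0.56 and the call was lost (exact binomial test, adjusted p = 0.546). Cyp21a1 had a log2 ratio of -0.02 (-0.06 to 0.02, exact binomial test, adjusted p = 0.866). In whole glands, fewer cells of a type and less RNA per cell cannot be told apart.

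The other genes of steroid synthesis showed both directions. Of a list of 16 genes, 14 had enough reads to test, 4 were higher in replicate 1, 2 were higher in replicate 2 and 8 did not pass. The calls were the same with TMM or DESeq2 scaling, while Hsd3b1 was not called over annotated transcripts alone. The median log2 ratio of the 14 was -0.13, against 0.03 over all genes tested. The genes higher in replicate 1 were Cyp11a1, Star, Cyp11b1, which makes corticosterone from the product of 21-hydroxylase, and Fdx1, the ferredoxin that feeds mitochondrial P450 enzymes. Their log2 ratios lay between -0.39 for Star and -0.22 for Cyp11a1. Hsd3b1 (log2 ratio 0.15) and Cyp11b2, which makes aldosterone in the outermost zone of the cortex, were higher in replicate 2. Cyp11b2 had 65 and 218 reads, a log2 ratio of 0.90, which was 1.86-fold. Por, the electron donor of 21-hydroxylase, had 267 and 223 CPM and did not pass the test. Cyp17a1, the 17-alpha-hydroxylase, had 3 reads and 0 reads, at or under the limit of 7.55 and 4.21 CPM that a count of 0 allows.

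**Figure D1:**
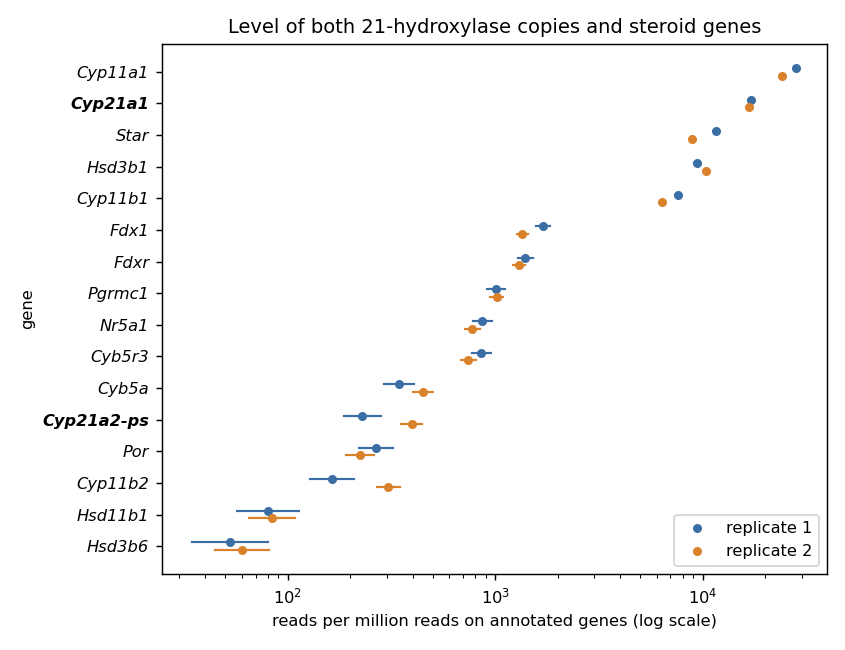
CPM (log axis) of Cyp21a1, Cyp21a2-ps (bold) and the 14 tested genes of the steroid list, with 1 point per library and 95% Wilson intervals. Cyp21a1 lies at 17030 and 16814 CPM with the libraries on top of each other, and Cyp21a2-ps at 229 and 396 CPM with intervals apart.

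The adrenal identity of both libraries was read from marker genes. All 7 markers of the adrenal cortex had reads, summing to 58347 and 51085 CPM, as did all 5 of chromaffin cells (10892 and 11936 CPM) and all 3 of the zona glomerulosa (340 and 433 CPM). The 3 markers of the X-zone, an inner zone of the young female mouse cortex, summed to 7641 and 7995 CPM. The 3 markers of brown fat summed to 1171 and 844 CPM. The 4 kidney markers had no reads. The 5 liver markers summed to 234 CPM in replicate 1 and 1.404 CPM in replicate 2, with 5 and 1 of them read, so the liver signal was high in the library where Cyp21a2-ps was low. Its part in the difference of Cyp21a2-ps was not tested.

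The neighbours of both copies were read at far lower levels than Cyp21a1. C4b, which encodes complement component 4, lies next to the pseudogene and had 191 and 180 CPM. C4a, the other copy, lies next to the gene and had 179 and 190 CPM. The pseudogene thus had more CPM than either complement gene in both libraries, without a test of that order. Stk19 had 45.3 and 46.3 CPM. Tnxb, the tenascin X gene on the opposite strand at the 3′ end of the pseudogene, had 1 and 2 reads, and Tnxa, its pseudogene at the 3′ end of Cyp21a1, had 0 and 2.

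Transcript models of Cyp21a1 were dominated by a single chain. The annotated chain of 9 introns was carried by 5539 of 6764 reads in replicate 1, 81.9% (80.9 to 82.8), and by 9558 of 11972 in replicate 2, 79.8% (79.1 to 80.5). The other GENCODE transcripts of the gene, which are short, had no reads of their own. Their introns outside the main chain were nevertheless read within other models. An acceptor 5 bases inside exon 5 (chr17:34803257-34803347) had 32 and 55 reads. Another, 14 bases upstream of exon 2 (chr17:34804148-34804197), had 10 and 15. Over all annotated genes, annotated transcripts took 77.1% and 77.0% of reads. Of 3926 genes tested for a different annotated share between the libraries, 0.229% were called, and Cyp21a1 was not (Fisher's exact test, adjusted p = 0.163). Among the 22 genes with at least 1000 reads in each library, Cyp21a1 stood 16 and 17 by annotated share, where the median was 85.8% and 85.9%. By make-up of transcript classes, Abcb1b, Acly, Sparc, Aldoa and Akr1c18 were the most like it. On average over both libraries, between 3.59% of reads (Abcb1b) and 6.57% (Akr1c18) would have to change class for the make-ups to match.

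The pseudogene had no such dominant chain. Its annotated chain of 8 introns held 22 of 91 reads, 24.2% (16.5 to 33.9), and 59 of 282 reads, 20.9% (16.6 to 26.0). In the TALON classes, NIC stands for unannotated combinations of annotated splice sites and NNC for models with an unannotated site. The models labelled NIC took 30.8% and 37.2% of its reads. Those labelled NNC took 27.5% and 32.3%, against 1.36% and 2.19% in Cyp21a1 and 3.39% and 3.34% over all genes. The labels did not follow the GENCODE sites strictly, since 6 of 28 and 40 of 105 reads labelled NIC in the pseudogene also used a site outside the annotation. Read from the exons, an unannotated site was in 37.4% and 51.8% of the reads of Cyp21a2-ps and in 2.37% and 2.92% of those of Cyp21a1. The annotations differ in depth, with 11 introns for the gene and 8 for the pseudogene. An acceptor 5 bases inside exon 4 of the pseudogene (2 and 11 reads) counts here as unannotated. Its counterpart in exon 5 of the gene (32 and 55 reads) counts as annotated. The Wilson intervals of the copies did not overlap in either library for the annotated chain, NIC or NNC. The annotated share of Cyp21a2-ps was not called as different between the libraries (Fisher's exact test, adjusted p = 1).

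Most models were rare. Of the models of Cyp21a1, 69 of 144 and 102 of 210 rested on 1 read, and together these held 1.02% and 0.852% of its reads. Of the models of Cyp21a2-ps, 23 of 33 and 29 of 56 rested on 1 read, holding 25.3% and 10.3% of its reads. Matched by intron chain, 97 spliced models of Cyp21a1 were in both libraries and held 99.2% and 98.6% of its spliced reads. For the pseudogene 20 models were in both, with 83.5% and 78.7% of spliced reads. The deposited class of the same chain differed between the libraries in 24 of the 97 and in 5 of the 20, for instance an incomplete splice match (ISM) in one and NIC in the other. The chains, not the class names, are used from here on.

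Of the models of Cyp21a1, 51 had at least 10 reads over both libraries. After the annotated chain, the most read retained intron 1 and spliced out introns 2 to 9, with 435 and 659 reads, 6.43% and 5.50% of the gene. A 1-exon model at the 3′ end had 109 and 257 reads. Models that begin inside the gene and keep its splicing to the 3′ end followed. They comprised exons 7 to 10 (53 and 112 reads) and exons 3 to 10 (39 and 91). A chain of introns 8 and 9 alone had 31 and 43 reads, in models of 814 and 1903 bases. In replicate 1 it begins in exon 8. In replicate 2 its outermost exon runs from exon 4 to exon 8, so those 43 reads count as retaining introns 4 to 7. A model that begins in exon 4 and retains introns 4 and 5 had 32 and 54 reads. Retention of introns 1, 3 and 4 together was read 27 and 50 times, of introns 1 and 6 together 22 and 47 times, and of intron 3 alone 22 and 46 times. The models with an acceptor upstream of exon 4 (18 and 49 reads) and inside exon 2 (13 and 53) completed the 12 most read. The remaining 39 had between 10 and 60 reads over both libraries. TALON groups reads by their introns and gives them a shared outer end, so the 5′ ends of models are not measured positions.

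**Figure D2:**
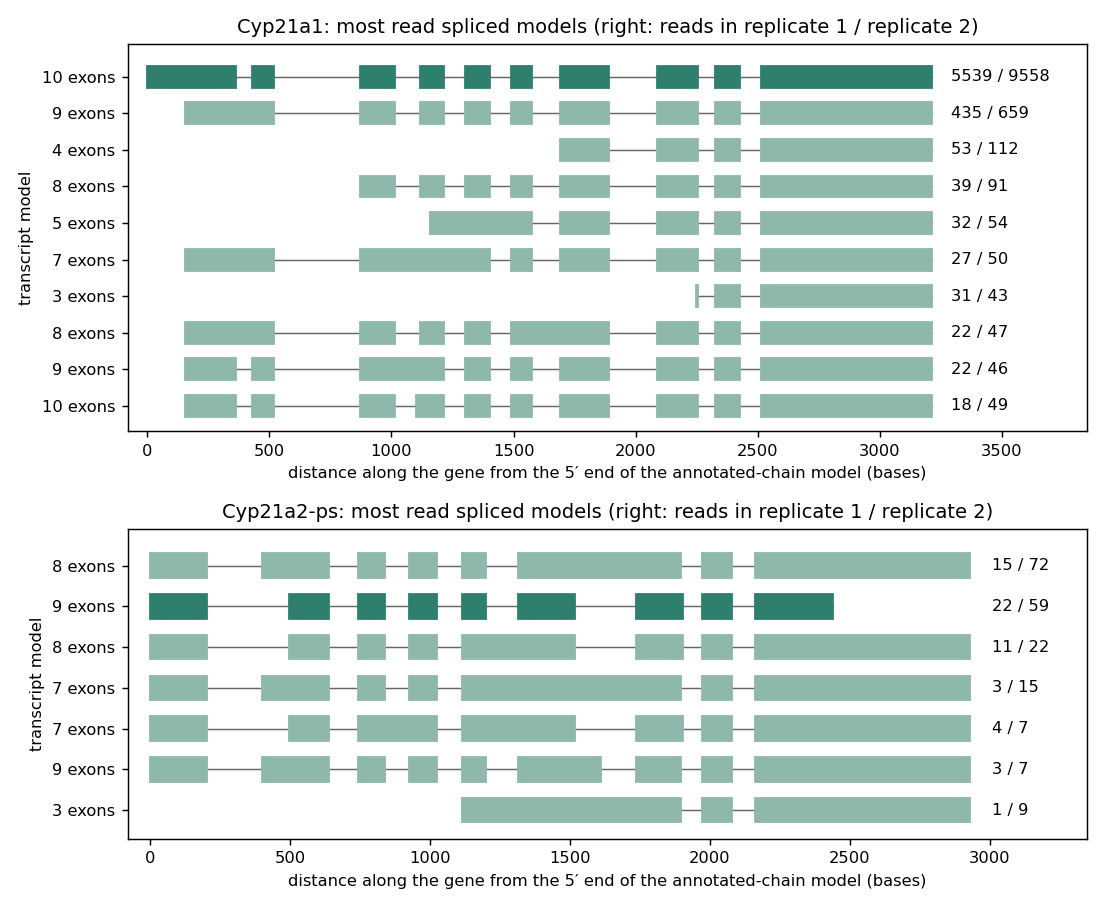
Exons (boxes) and introns (lines) of the 10 most read spliced models of Cyp21a1 and the 7 of Cyp21a2-ps with at least 10 reads, drawn to scale as distance in bases from the 5′ end of the annotated-chain model (dark). Exons are drawn as in replicate 1, and outer ends can differ in replicate 2. Reads in replicate 1 and replicate 2 stand at the right. The annotated chain of Cyp21a1 has 5539 and 9558 reads, while in Cyp21a2-ps a model of 8 exons with 15 and 72 reads stands beside the annotated chain with 22 and 59.

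Retention of single introns of Cyp21a1 was low, apart from intron 1. Over the reads whose model covers the intron, intron 1, which is 64 bases long, was retained in 10.4% (9.68 to 11.2) and 10.05% (9.51 to 10.6). All but 1 of these reads in each library retained it in the outermost exon of the model, where reads that begin within exon 2 could be counted with those that cross the intron. Intron 4 followed with 3.08% and 4.13%, and intron 3 with 2.19% and 3.06%. The outermost exon held 50 of 202 and 152 of 478 of the reads that retained intron 4. In inner exons alone, intron 4 was retained in 2.32% and 2.82%, and intron 3 in 2.16% and 2.89%. Intron 7 was retained in the outermost exon by 4 and 44 reads, so part of the difference between libraries lies in outer ends. Introns 2 and 9 were retained least, at 0.0775% and 0.23% for intron 2 and 0.0751% and 0.0512% for intron 9. Every annotated intron of the main transcript was spliced in 5707 to 6642 reads of replicate 1 and 10042 to 11694 of replicate 2. Models with at least 1 retained annotated intron held 11.5% and 12.6% of the reads of the gene. Those with at least 1 retained in an inner exon held 3.84% and 5.44%.

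In the pseudogene 68.1% (58.0 to 76.8) and 72.0% (66.5 to 76.9) of reads had at least 1 retained annotated intron. Counting inner exons alone, the shares of the pseudogene were 65.9% and 67.0%. Retention was uneven over its introns. Intron 6 of the pseudogene was retained in 42.9% (33.2 to 53.1) and 53.2% (47.4 to 59.0) of covering reads, against 1.06% and 1.58% for the corresponding intron 7 of the gene. Intron 5 was retained in 34.4% (25.4 to 44.7) and 35.0% (29.7 to 40.8), against 1.53% and 2.31% for intron 6 of the gene. Intron 3 was retained in 14.6% (8.74 to 23.4) and 12.9% (9.36 to 17.5), against 3.08% and 4.13% for intron 4 of the gene. Intron 7 was retained in 7.69% and 9.57%, against 0.949% and 2.13% for intron 8 of the gene. Of 7 corresponding introns, 5 had intervals that lay apart in both libraries, all higher in the pseudogene.

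The fifth was intron 8, retained in 1.10% and 0.709%, from 1 and 2 reads, against 0.0751% and 0.0512% for intron 9 of the gene. In both copies all of these reads retained it in the outermost exon of the model. The other 2 introns had intervals apart in 1 library each, in opposite directions. Intron 2 was retained in 1.14% and 0.758% of its reads, against 2.19% and 3.06% in the gene, with intervals apart in replicate 2. Intron 4 was retained in 3.37% and 2.65%, against 0.656% and 1.13%, with intervals apart in replicate 1. In the gene, 35 of 43 and 106 of 131 of these reads retained it in the outermost exon. In inner exons alone, the gene stood at 0.122% and 0.216%, and the pseudogene at 3.37% and 2.27%. The introns with the most retention did not share a length. Intron 6 is 219 bases against 196 in the gene, while intron 5 is 114 against 113 and intron 3 is 86 in both copies. The bases of the introns were not analysed here.

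**Figure D3:**
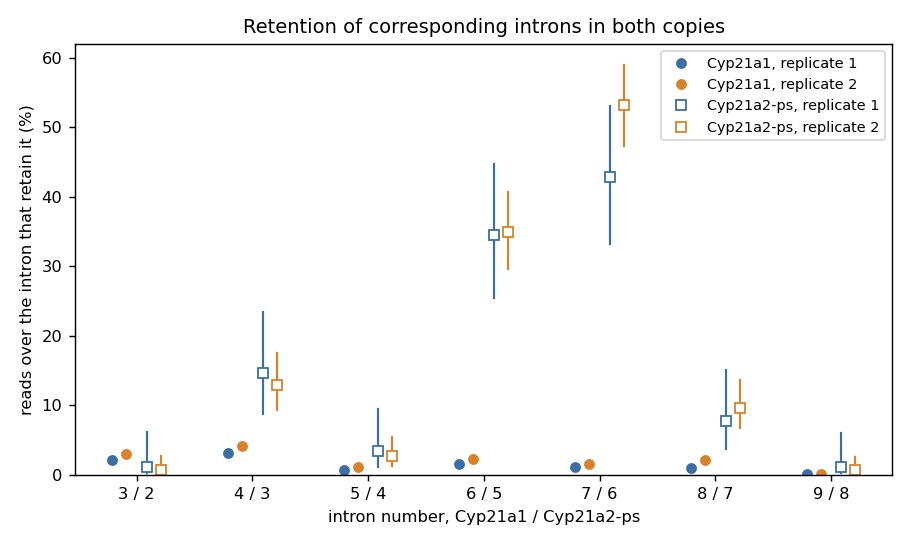
Percent of reads covering an intron that retain it, for 7 corresponding introns of Cyp21a1 (filled circles) and Cyp21a2-ps (open squares) in each library, with 95% Wilson intervals. Introns 5 and 6 of the pseudogene reach 34.4% to 53.2%, while all 7 introns of the gene stay at or under 4.13%.

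The introns outside the annotation were also read in both copies. Cyp21a1 models held 81 introns, of which 70 were outside the annotation of the gene. One of them, on 1 read, is an annotated intron of the pseudogene in a model that joins the copies, so 69 were in neither annotation. Of the 70, 33 were read in both libraries, 13 in replicate 1 alone and 24 in replicate 2 alone, and 31 rested on 1 read. Reads with at least 1 such intron were 206 of 6764 in replicate 1, 3.05% (2.66 to 3.48), and 427 of 11972 in replicate 2, 3.57% (3.25 to 3.91). In Cyp21a2-ps the models held 23 introns, 15 of them outside the annotation and 9 of these in both libraries. Such introns were in 34 of 91 reads, 37.4% (28.1 to 47.6), and 146 of 282 reads, 51.8% (46.0 to 57.5).

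In Cyp21a1 the most read of these introns used an acceptor 25 bases inside exon 2, at chr17:34804109-34804197, with 19 and 58 reads. Its last bases are the capitals in the exon 2 sequence above. The next used an acceptor 18 bases upstream of exon 4 (chr17:34803462-34803548), with 21 and 53 reads. An intron from exon 1 to exon 3 (chr17:34803692-34804197) had 25 and 29 reads and skips exon 2. It joins the exons that the annotated pseudogene joins. In all, 37 of 6764 and 46 of 11972 reads skipped exon 2, which is 0.547% (0.397 to 0.753) and 0.384% (0.288 to 0.512). Skipping of exon 4 (chr17:34803262-34803548), which has 96 bases, had 13 and 33 reads.

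Exon 7 of the gene was also entered past its annotated start. An acceptor 51 bases inside it (chr17:34802821-34802984) had 21 and 29 reads, and one 5 bases inside it (chr17:34802867-34802984) had 14 and 19. The pseudogene used the acceptor 5 bases inside its exon 6 in 1 and 4 reads. The first bases of both exons, from chr17:34802802-34802871 and chr17:34720867-34720936 of mm10, minus strand, are shown with the last bases of each intron read in both libraries in capitals.
exon 7 of Cyp21a1: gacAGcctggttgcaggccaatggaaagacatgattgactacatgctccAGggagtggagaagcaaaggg
exon 6 of Cyp21a2-ps: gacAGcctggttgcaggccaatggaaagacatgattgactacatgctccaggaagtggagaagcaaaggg
Both copies hold the letters of both sites. At the share seen in the gene, use of the deeper site would not be detectable at the depth of the pseudogene.

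The other named introns of the gene were rarer. An acceptor 6 bases inside exon 8 (chr17:34802469-34802670) had 9 and 24 reads. A donor 62 bases before the end of exon 8 (chr17:34802237-34802366), the donor being the site at the 5′ end of an intron, had 7 and 23. Introns from a donor inside exon 10 to an acceptor in the same exon (chr17:34801439-34801793) had 6 and 15 reads. From the same donor to an exon that begins 479 bases past the annotated end (chr17:34800870-34801793) there were 5 and 16 reads. Where an unannotated intron of the gene shares 1 site with the annotation and has the other inside an exon, the letters there could be read. Of 17 such acceptors, 16 end in AG and 1 in AT, and of 11 such donors, 4 begin with GT and 7 with GC. The 7 introns beginning with GC had 11 reads in all, against 45 reads for the 4 beginning with GT.

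Both copies used the same 2 donors in their last exon. In the gene, introns that begin after base 255 of exon 10 had 14 and 40 reads, and those after base 215 had 4 and 19. In the pseudogene, introns after base 255 of exon 9 had 1 and 2 reads, and those after base 215 had 1 and 2. Not counting models whose last exon lies at the pseudogene, exons past the annotated end of the gene were in 9 reads (0.133%) and 37 reads (0.309%), or in 17 and 45 with them. There were exons upstream of its annotated start in 6 and 19 reads.

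**Figure D4:**
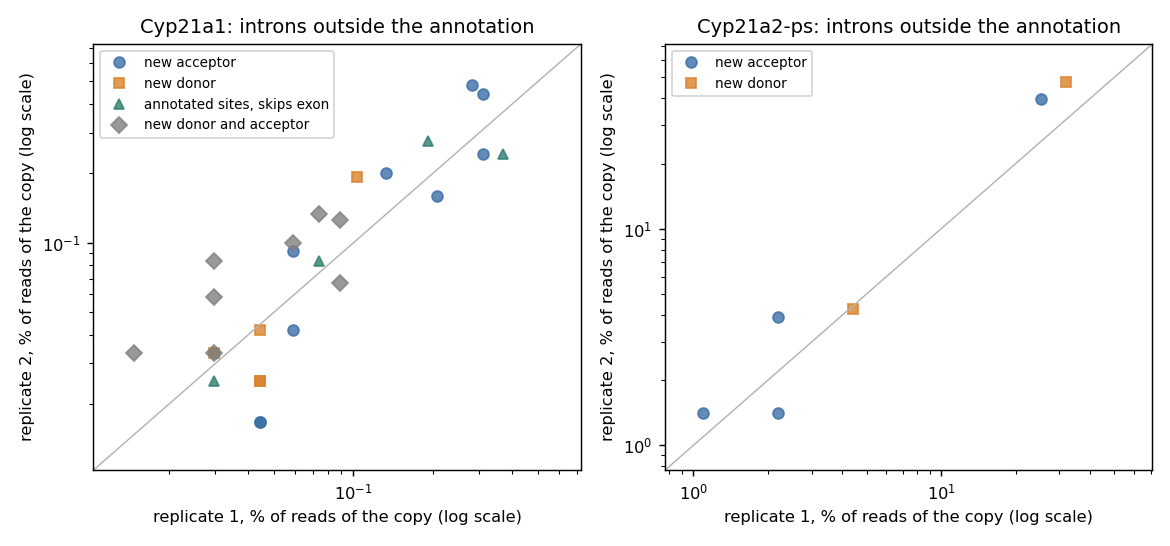
Unannotated introns with at least 5 reads over both libraries and at least 1 in each, as percent of the reads of the copy in replicate 1 (x) and replicate 2 (y), on log axes with the line of equality. All 27 introns of Cyp21a1 stay under 0.5% in both libraries, whereas 2 of the 6 of Cyp21a2-ps reach 25.3% and 31.9% in replicate 1 and 39.7% and 47.5% in replicate 2.

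The reads of the pseudogene fell into 2 sets by splice sites that lie far apart in the transcript. At the start of exon 2, 60 and 138 reads used the annotated acceptor, and 23 and 112 used an acceptor 99 bases upstream (intron chr17:34721854-34722050). The upstream site held 26.7% (18.5 to 36.9) of reads with an acceptor there in replicate 1 and 43.6% (37.7 to 49.7) in replicate 2. At the end of exon 7, 29 of 84 and 134 of 255 reads used a donor 8 bases before the annotated one (intron chr17:34720279-34720354). That is 34.5% (25.2 to 45.2) and 52.5% (46.4 to 58.6). Both alternative sites are outside the annotation and were more frequent in replicate 2, with intervals that did not overlap.

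The choice at one site went with the choice at the other in every read with an annotated or one of these alternative sites at both places. Of 302 such reads, 135 had the upstream acceptor and the early donor, 167 had both annotated sites, and 0 mixed them, which allows a share of mixed reads of up to 0.993%. The count was 77 of 77 in replicate 1 (Wilson interval 95.2% to 100%) and 225 of 225 in replicate 2 (98.3% to 100%). A further 10 reads, not among these, joined the early donor to other unannotated acceptors, 73 or 94 bases upstream of exon 2. Parental alleles were not analysed here.

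The last 30 bases of the exon at the donor, chr17:34802305-34802334 for the gene and chr17:34720347-34720376 for the pseudogene, mm10, minus strand, are shown with the first 2 bases of the early intron in capitals.
end of exon 8 of Cyp21a1: cttgccccatcgtgcaactaggGCtagcag
end of exon 7 of Cyp21a2-ps: cttgccccatcgtgcaactaagGCtagcag
The early intron begins with GC in both reference sequences, and the difference G161A lies shortly before it. In Cyp21a1 the same donor was used in 4 of 6764 reads of replicate 1 and 0 of 11972 of replicate 2, 1 of them in a model that continues in the pseudogene. In the pseudogene it was used by more reads than the annotated donor in replicate 2, 134 against 121.

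The sets also differed in which introns they retained. Among reads with the upstream acceptor, intron 6 was retained in 20 of 23 reads, 87.0% (67.9 to 95.5), and 101 of 112, 90.2% (83.3 to 94.4). Among reads with the annotated acceptor it was retained in 14 of 60, 23.3% (14.4 to 35.4), and 26 of 138, 18.8% (13.2 to 26.2). Intron 5 went the other way, with 3 of 23 and 26 of 112 reads in the first set against 27 of 60 and 57 of 138 in the second. Its intervals, 4.54% to 32.1% against 33.1% to 57.5% in replicate 1 and 16.4% to 31.8% against 33.4% to 49.6% in replicate 2, lay apart in both libraries. Intron 7 was not compared, because a read that splices from the early donor cannot retain it. The sets and these comparisons were chosen after the values were seen, and no test was made.

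The level of each set was also compared between the libraries. Reads with the upstream acceptor stood at 57.9 and 157 CPM, 2.72-fold higher in replicate 2 (95% interval 1.72 to 4.46). Reads with the annotated acceptor stood at 151 and 194 CPM, 1.28-fold (0.94 to 1.77), an interval that includes no change. The intervals of the folds overlap slightly, so a difference between the sets is not shown by them. The share of the upstream acceptor compares the sets directly. It was 26.7% (18.5 to 36.9) in replicate 1 and 43.6% (37.7 to 49.7) in replicate 2, with intervals that lay apart, and was not tested.

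**Figure D5:**
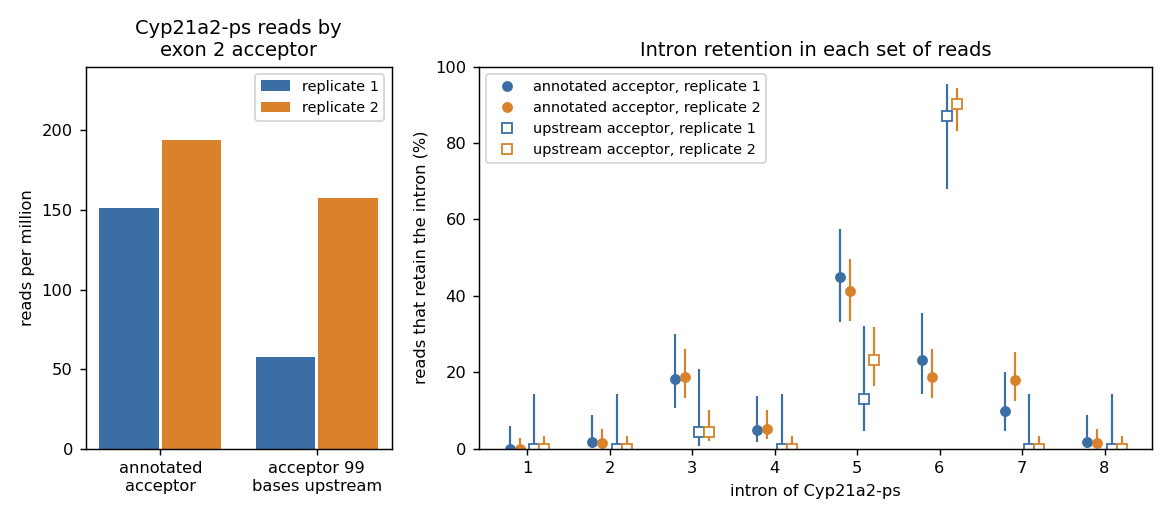
Left, CPM of Cyp21a2-ps reads with the annotated acceptor of exon 2 or the one 99 bases upstream, per library, as single values. Right, percent of reads of each set that retain each of 8 introns, with 95% Wilson intervals. Intron 6 is retained in 87.0% and 90.2% of reads with the upstream acceptor and in 23.3% and 18.8% of those with the annotated one.

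The 7 models of Cyp21a2-ps with at least 10 reads showed the same division. The most read, with 15 and 72 reads, had the upstream acceptor, the early donor and intron 6 retained. The annotated chain came next with 22 and 59. A model with annotated sites and intron 5 retained had 11 and 22 reads, and one that retained introns 3 and 5 had 4 and 7. A model with both alternative sites and introns 5 and 6 retained had 3 and 15 reads. With both alternative sites and a donor 96 bases past the end of exon 6, there were 3 and 7 reads. A shorter model of 3 exons with the early donor and introns 5 and 6 retained had 1 and 9 reads.

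At the 3′ end, most models of the pseudogene ran past its annotation. Of its models, 31 of 33 and 53 of 56 end at position 34719324, 489 bases beyond the annotated end. The annotated chain, with 22 and 59 reads, is listed with the annotated end. Reads grouped in a model share its outer ends, so the 3′ ends of single reads were not measured. A 1-exon model of 203 bases, chr17:34719324-34719526 on the minus strand, had 10 and 21 reads. The deposited tables place it in an unannotated gene antisense to Tnxb, although it lies inside the last exon of these models. With it, the pseudogene took 1.97% ± 0.71 (SD, n = 2) of the reads of both copies, an alternative chosen after seeing the data.

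Models with exons in both copies were rare. With the GENCODE limits of the loci there was 1, on 1 read of replicate 1. It follows the gene from exon 1 into exon 8 with introns 1 and 7 retained, leaves at the early donor, and continues with exons 8 and 9 of the pseudogene across 82034 bases. With the pseudogene taken to the 3′ end of its models, there were 4 models with 8 reads in replicate 1 and 2 models with 8 reads in replicate 2, 0.118% and 0.0668% of the reads of Cyp21a1. As 1 chain was in both libraries, these were 5 distinct chains. Of these 16 reads, 6 and 8 shared a junction, from 91 bases before the annotated end of exon 10 of the gene to the last 119 bases of the pseudogene models, across 81996 bases (chr17:34719443-34801438). All were assigned to Cyp21a1. The acceptor of that junction was also reached from the pseudogene's own last exon, by 1 and 3 reads over 2 introns. Their origin was not tested.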

How the data were processed

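Long-read RNA-seq of adrenal gland was analysed in 1 group of 2 libraries (426150 and 770041 reads, 397176 and 712032 of them on annotated mouse genes). Per the file headers, the authors deposited whole-number counts of reads per transcript model, one table per library, listing models with at least 1 read, with exon positions in mm10. Reads were assigned to GENCODE M21 extended by TALON models named in each library separately, per the file headers; the aligner and program versions are not given in the sources used here. Reads on added control RNAs were left out.

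Introns were read from the deposited exons and matched by exact start and end. An intron counts as retained when 1 exon of the model runs over it. CPM uses reads on annotated genes, and log2 ratios add 0.5 to each count. Shares have 95% Wilson intervals. Genes were compared between libraries by exact binomial and Fisher's exact tests (scipy 1.17.1) with Benjamini-Hochberg adjustment over all genes, tested on simulated data. Exon sequences came from the GENCODE transcripts and were aligned with Biopython 1.88. Totals scaled with edgeR 4.0.16 (TMM) and DESeq2 1.42.0 size factors, other filters on models and reads, and leaving out each library were alternatives. Named were models with at least 10 reads (up to 12 per gene), unannotated introns with at least 5 reads and 1 in each library (up to 10), the genes next in level, those within 20 kilobases, 16 steroid genes and the genes most alike in class make-up. Introns of the pseudogene and the reads joining the copies were added after their values were seen. Members and lists were chosen with earlier results of these data known.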

Additional observations from a re-analysis of the deposited data

How the results depend on the processing

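Restricting counts to annotated transcripts gave 17762 CPM for Cyp21a1, 89.7 CPM for Cyp21a2-ps and a pseudogene share of 0.505%. The log2 ratio of Cyp21a2-ps was then 0.56 and not called, and it was called under the other 4 alternatives, at 0.74 to 0.78 (exact binomial test, adjusted p 0.00044 to 0.00108). Cyp21a1 was not called under any of the 5. Leaving out 1-exon models gave 18718 CPM for Cyp21a1, an annotated share of 82.4% and 2 genes with a different annotated share, against 9. All mouse reads as the total gave 16025 CPM for Cyp21a1. The share of Cyp21a1 reads with an unannotated intron was 2.69% without models of 1 read, 2.84% with ends matched within 10 bases and 3.31% as reported. Unannotated introns of Cyp21a1 with at least 5 reads in each library numbered 12, against 33. Models in both copies, counted in each library, numbered 6 (5 distinct chains) with the longer pseudogene locus, against 1, and 0 without replicate 1 and 1 without replicate 2. Without 1 library, Cyp21a1 stood at 16814 to 17030 CPM, Cyp21a2-ps at 229 to 396 CPM and its share at 1.33% to 2.30%. Fewer than 300 reads of the pseudogene per library limit its single introns. No paired analysis was possible because there is 1 group.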
